A study of Homo sapiens with 6 samples.

Results

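Collagen chain genes were read out in RMS13 cells in which the transcription factor GLI1 was lowered. Every gene whose symbol was COL, a number, A and a number was taken, which gave 44 genes of the 25702 listed in the deposited table. RMS13 is an established human rhabdomyosarcoma line, grown from a tumour that resembles developing skeletal muscle, and GLI1 is a zinc finger factor at the end of the Hedgehog pathway. The siGLI1 group held 3 libraries of cells given an siRNA, a short RNA that directs cleavage of its target message, here GLI1. The siNT2 group held 3 libraries of the same line given an siRNA that the labels call non-targeting. All 6 were harvested at 72 h from cells in RPMI medium with fetal bovine serum, and messenger RNA was sequenced. The model is 1 cell line with a transient knockdown, and the labels name 1 siRNA label per group. Whether replicates were separate cultures is not said, so p-values reflect the spread among 6 libraries, part or all of which may be technical.

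Collagens are secreted proteins in which 3 chains wind into a helix along repeats that place glycine at regular intervals. Fibrillar collagens (types I, II, III, V, XI, XXIV and XXVII) assemble into the banded fibrils of skin, tendon, bone and cartilage. FACIT collagens, the fibril-associated group with interrupted helices, sit on the fibril surface. Type IV collagens build the sheet of basement membranes, which surrounds every muscle fibre, and type VI collagen forms beaded filaments just outside it. Skeletal muscle takes most of its fibrillar collagen from the fibroblasts between fibres, whereas muscle cells themselves add to the basement membrane.

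GLI1 itself was at 579.9, 905.8 and 1274 normalised reads in siGLI1 replicates 1, 2 and 3, against 11963, 17837 and 12774 in siNT2 replicates 1, 2 and 3. Its mean in siGLI1 was 6.48% of that in siNT2, and the groups did not overlap (95% interval of the log2 fold change -4.67 to -3.32, limma adjusted p = 0.000425). Sequencing depth ranged over 13784642 to 15477041 reads in siGLI1 libraries and over 13673977 to 18947614 in siNT2 libraries. A gene with a count of 0 could still have had an expected count of up to 3 reads, equal to 2.39 to 3.29 normalised reads. The labelled origin was checked by marker genes: 7 of 8 listed myogenic genes passed the filter on low values, and MYF5 was below 10 in every library. The summed myogenic markers were 48572 to 72556 in siGLI1 and 43427 to 60423 in siNT2, with overlap. DES, CHRNA1 and MYMK were called higher in siGLI1, and MYOG, MYOD1, PAX3 and CDH15 were not called. Those calls were lost without siNT2 replicate 1 (adjusted p = 0.0535 for DES, 0.0596 for CHRNA1 and 0.0512 for MYMK), and without siGLI1 replicate 2 those of CHRNA1 (0.0696) and MYMK (0.069) were lost. Of 8 fibroblast markers, DCN, DPT and POSTN stayed below 10 in every library, and the summed list was 485.9 to 521.6 in siGLI1 and 568.0 to 765.5 in siNT2. Most of that sum was PDGFRA (-0.25, adjusted p = 0.527) and PDGFRB (-0.60, adjusted p = 0.177), neither of them called. The only fibroblast marker called, LUM, was low and was higher in siGLI1 (0.96, adjusted p = 0.0484), a call lost whichever library was left out. Summed osteoblast markers, nearly all RUNX2, were 2020 to 2809 in siGLI1 and 1468 to 1832 in siNT2. RUNX2 was higher in siGLI1 without overlap but was not called by limma (0.62, adjusted p = 0.0532). It was called higher by edgeR (adjusted p = 0.0473) and DESeq2 (adjusted p = 0.0143). ALPL, at 4.32, 11.2 and 19.8 in siGLI1 and 53.8, 84.2 and 77.4 in siNT2, fell (-2.69, adjusted p = 0.0111, and 0.0545 without siGLI1 replicate 2). Summed endothelial markers were 140.2 to 165.2 in siGLI1 and 68.0 to 122.8 in siNT2. Among them PECAM1, at 86.4, 81.8 and 90.9 in siGLI1 and 13.2, 14.2 and 5.58 in siNT2, rose (2.96, adjusted p = 0.00226), TEK was not called (-0.37), and CDH5, KDR and VWF were below 10 in every library. The part of these markers in the collagen differences was not tested. In bulk RNA, fewer cells of a type and less RNA per cell cannot be told apart.

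Libraries also differed in how their values tracked the guanine and cytosine (GC) content of transcripts. GC-rich genes were high in siGLI1 replicate 3 and siNT2 replicate 2 (Spearman correlation of a library's deviation with GC, across genes, 0.752 in siGLI1 replicate 3 and 0.704 in siNT2 replicate 2) and low in the other four (-0.702 to -0.314). The collagen chains showed the same split, at a GC content chosen after the values were seen. Of 14 tested chains with 60% GC or more, 13 had their highest siGLI1 value in replicate 3 and 13 had their highest siNT2 value in replicate 2. Of the 15 tested chains below 60% GC, 0 did so in either group. Across tested genes, the log2 fold change (siGLI1 minus siNT2) also tracked GC (Spearman correlation -0.294). Chains called without removal of each library's GC trend (GC correction) kept their calls with it, but sizes moved. With GC correction they were -0.55 for COL2A1, -1.99 for COL9A1 and -1.55 for COL9A3. They were 0.74 for COL5A2, 1.49 for COL19A1, 1.63 for COL8A2, 1.80 for COL20A1 and 2.89 for COL1A2. Below, GC-corrected values are given where they change the call of a collagen chain or of a gene that processes or binds collagen. Of the marker genes named above, RUNX2 (0.52, adjusted p = 0.00217) and MYOG (0.41, adjusted p = 0.00618) were called higher by limma after GC correction. The LUM call was lost (adjusted p = 0.0694).

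Per kilobase of transcript, 5 chains held 77.1% of the summed collagen level over the 6 libraries, and 10 chains held 92.2%. COL4A2, a basement membrane chain, averaged 1644 normalised reads per kilobase in siGLI1 and 1544 in siNT2. COL5A2, a type V fibrillar chain, averaged 1784 per kilobase in siGLI1 and 1068 in siNT2. COL2A1, the single chain of type II, the main fibrillar collagen of cartilage and of the eye's vitreous, averaged 681.2 per kilobase in siGLI1 and 1167 in siNT2. The next in order were COL14A1 (687.3 per kilobase in siGLI1, 502.1 in siNT2) and COL4A1 (606.6 in siGLI1, 567.0 in siNT2). Below them came COL12A1 (315.6 in siGLI1, 240.2 in siNT2), COL27A1 (256.9 in siGLI1, 224.3 in siNT2) and COL18A1 (210.8 in siGLI1, 192.1 in siNT2). COL5A1 (127.3 in siGLI1, 214.2 in siNT2) and COL3A1 (103.1 in siGLI1, 122.4 in siNT2) completed the 10. The type I chains, the most abundant collagens of skin and bone, were not among these 10. COL14A1 and COL4A1, neighbours in this order, overlapped in their per-kilobase levels across libraries of each group, as did COL27A1 and COL18A1.

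**Figure D1:**
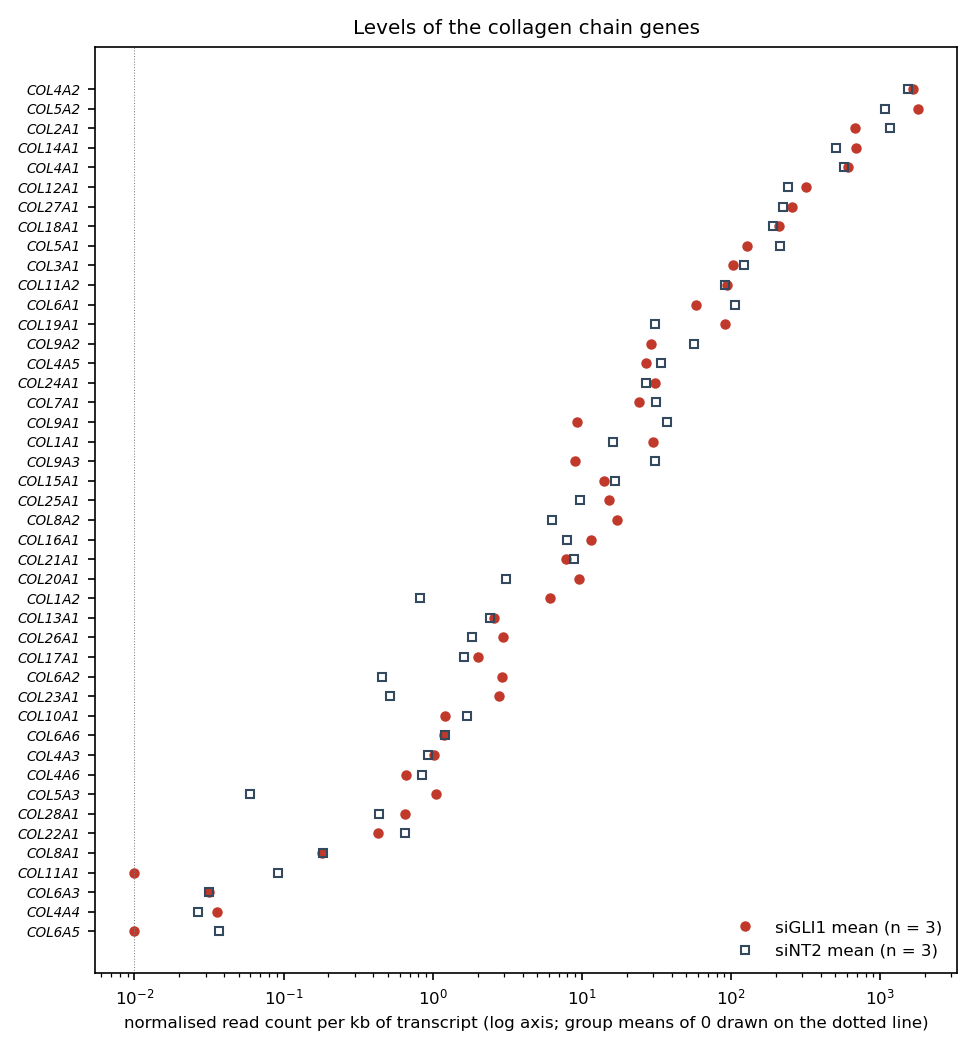
Mean level of each of the 44 collagen chains per kilobase of transcript, on a log axis, for siGLI1 and siNT2 (n = 3 libraries each), ranked by the mean over all libraries. COL4A2, COL5A2, COL2A1, COL14A1 and COL4A1 lead, with COL5A2 at 1784 per kilobase in siGLI1 and 1068 in siNT2.

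Expression was compared with limma on log2(normalised reads + 1) for genes with a mean of 10 or more, and a call is an adjusted p under 0.05 after Benjamini-Hochberg adjustment over all 15622 such genes. Of the 44 chains, 29 passed the filter and 15 were too low to test. Among the tested chains 5 rose in siGLI1, COL1A2, COL5A2, COL8A2, COL19A1 and COL20A1, beside a background of 7.21% of all tested genes. In the other direction 3 fell, COL2A1, COL9A1 and COL9A3, beside a background of 8.0%. Together 27.6% of the tested chains were called, beside 15.2% of all tested genes, and the other 21 tested chains were not called. The median log2 fold change of the 29 was 0.11, with a range of -1.96 to 2.79 and 16 above 0, and that of all genes tested was -0.01. The maximum, COL1A2, also counted among the calls, averaged 4.43 in siNT2 and passed the filter only through its siGLI1 values. The quasi-likelihood test of edgeR on the recovered reads called the same 5 chains higher (background 7.57%) and the same 3 lower (background 7.68%). DESeq2 called 6 higher and 5 lower (background 10.5% in either direction), adding COL1A1, COL5A1 and COL6A1. After GC correction limma called 9 higher (background 17.4%) and 6 lower (background 16.7%). Values of the groups did not overlap for 6 chains that were higher in siGLI1 (background 17.4%) and 5 that were lower (background 18.8%).

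**Figure D2:**
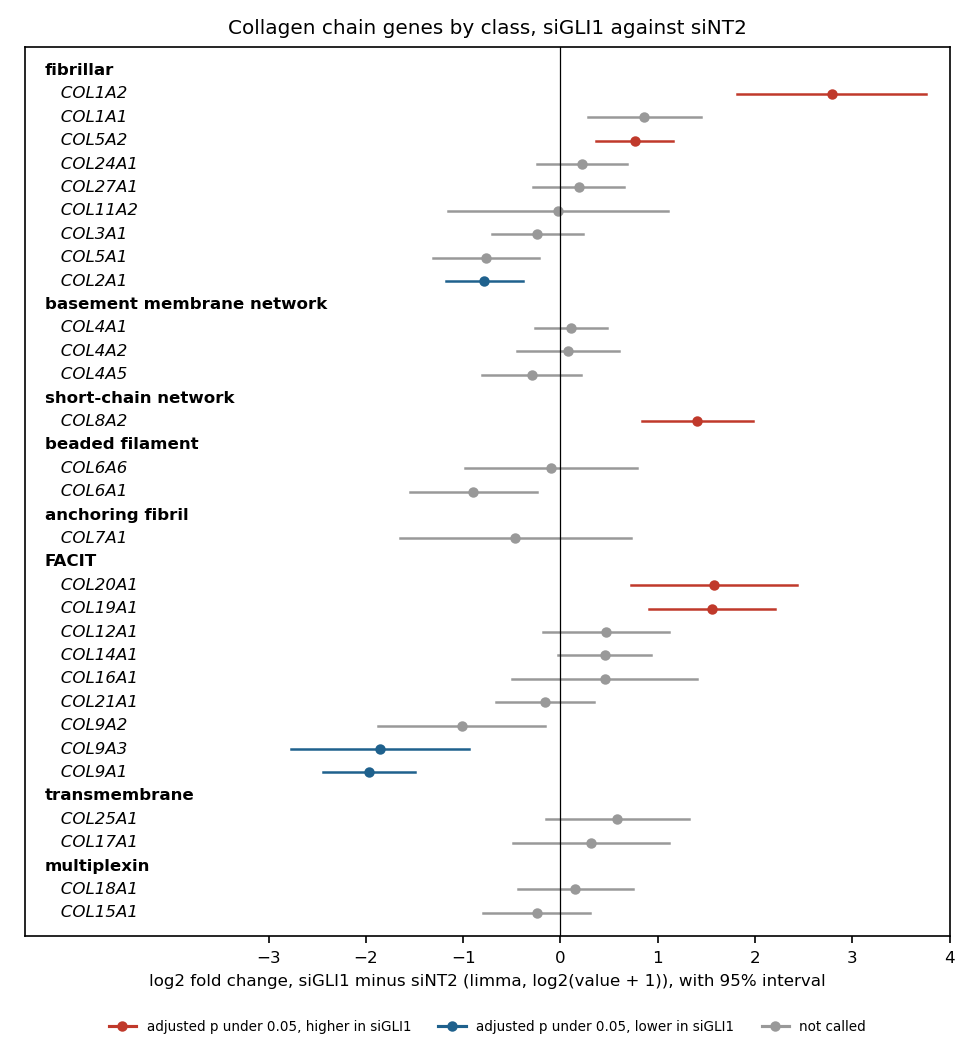
Log2 fold change (siGLI1 minus siNT2) of the 29 tested collagen chains with 95% confidence intervals from limma, grouped by collagen class. Calls in opposite directions stand side by side among the fibrillar chains (COL5A2 at 0.76, COL2A1 at -0.78) and the FACIT chains (COL20A1 at 1.58, COL9A1 at -1.96).

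Of 11 fibrillar chains, 9 were tested: 2 rose (background 7.21%), 1 fell (background 8.0%) and 6 were not called (median log2 fold change 0.19). COL2A1 was at 3056, 3113 and 4194 normalised reads in siGLI1 replicates 1 to 3, against 5420.1, 6850.0 and 5477 in siNT2 replicates 1 to 3. Every siGLI1 library lay below every siNT2 library, and siGLI1 replicate 3 and siNT2 replicate 2 were the highest of their groups. The mean was 3454 ± 640.9 in siGLI1 and 5916 ± 809.7 in siNT2 (SD, n = 3 each), a log2 fold change of -0.78 with a standard error of 0.17 and a 95% interval of -1.18 to -0.39 (limma adjusted p = 0.0218). The call was kept without siGLI1 replicate 3 (adjusted p = 0.00811), while leaving out any of the other libraries gave 0.0519 to 0.112.

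Type V collagen sits inside type I fibrils and sets their diameter, and its common trimer holds COL5A1 and COL5A2 chains. COL5A2 was at 12269, 13675 and 11961 in siGLI1 replicates 1 to 3, against 6373, 6790.1 and 9515 in siNT2 replicates 1 to 3. All siGLI1 libraries were above all siNT2 libraries, of which replicate 3 was the highest. The means were 12635 ± 913.3 in siGLI1 and 7559 ± 1706 in siNT2, a log2 fold change of 0.76 (standard error 0.17, 95% interval 0.36 to 1.16, adjusted p = 0.0244). The call was lost without siGLI1 replicate 2 (adjusted p = 0.12), siNT2 replicate 1 (0.104) or siNT2 replicate 2 (0.0631). Its partner COL5A1 was at 814.3, 1022 and 1398 in siGLI1 and 1491, 2261 and 1692 in siNT2. The siGLI1 libraries again did not overlap the siNT2 libraries, but on the lower side. COL5A1 missed the threshold (log2 fold change -0.76, 95% interval -1.31 to -0.22, adjusted p = 0.0678). It was called lower by DESeq2 (adjusted p = 0.0288) and by limma with the GC trend removed (-0.57, adjusted p = 0.00373). The third type V chain, COL5A3, had 2.16, 12.3 and 4.94 in siGLI1, against 1.10, 0 and 0 in siNT2, where every library was below the floor of 3 reads, and it was not tested.

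Type I collagen is built from COL1A1 and COL1A2. COL1A2 was at 31.3, 36.8 and 30.6 in siGLI1 replicates 1 to 3 (29, 36 and 31 reads), against 3.29, 2.03 and 7.97 in siNT2 replicates 1 to 3 (3, 2 and 10 reads). The siGLI1 libraries were close to each other and all above siNT2, whose libraries lay near the counting floor. Means were 32.9 ± 3.39 in siGLI1 and 4.43 ± 3.13 in siNT2, and the log2 fold change was 2.79 (standard error 0.42, 95% interval 1.82 to 3.76, adjusted p = 0.00593). The call was kept when any 1 library was left out (adjusted p = 0.00539 to 0.0428). Its size depends on the pseudocount, being 1.74 with a pseudocount of 8, and the gene passed the filter only through its siGLI1 values. COL1A1 was at 157.7, 185.0 and 258.8 in siGLI1 and 130.7, 114.6 and 82.9 in siNT2. All siGLI1 libraries were above all siNT2 libraries, yet the change was not called (0.86, 95% interval 0.28 to 1.44, adjusted p = 0.0569). DESeq2 called COL1A1 higher (adjusted p = 0.0115), as did limma with the GC trend removed (1.07, adjusted p = 0.00242) and limma without siGLI1 replicate 1 (adjusted p = 0.0487).

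The remaining fibrillar chains did not pass the threshold. COL3A1, the chain of type III, which accompanies type I in stretchable tissues, was at 471.9, 639.0 and 603.5 in siGLI1 and 587.5, 592.3 and 855.6 in siNT2 (log2 fold change -0.24, adjusted p = 0.46). COL27A1, a cartilage-associated fibrillar chain, was at 1552, 2015 and 2438 in siGLI1 and 1564, 2108 and 1570.2 in siNT2 (0.19, adjusted p = 0.569). Their groups overlapped, and COL27A1 became a call on the higher side after GC correction (0.40, adjusted p = 0.00649). COL24A1, a fibrillar chain of developing bone, was at 0.22 on the log2 scale and was not called (adjusted p = 0.488). COL11A2, a type XI chain of cartilage, varied within groups more than between them, at 267.8, 606.2 and 928.4 in siGLI1 and 354.7, 893.5 and 501.6 in siNT2 (-0.03, 95% interval -1.15 to 1.10, adjusted p = 0.977). Its partner COL11A1 was listed at 0 in all siGLI1 libraries and at 0, 2.03 and 0 in siNT2, all under the floor.

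**Figure D3:**
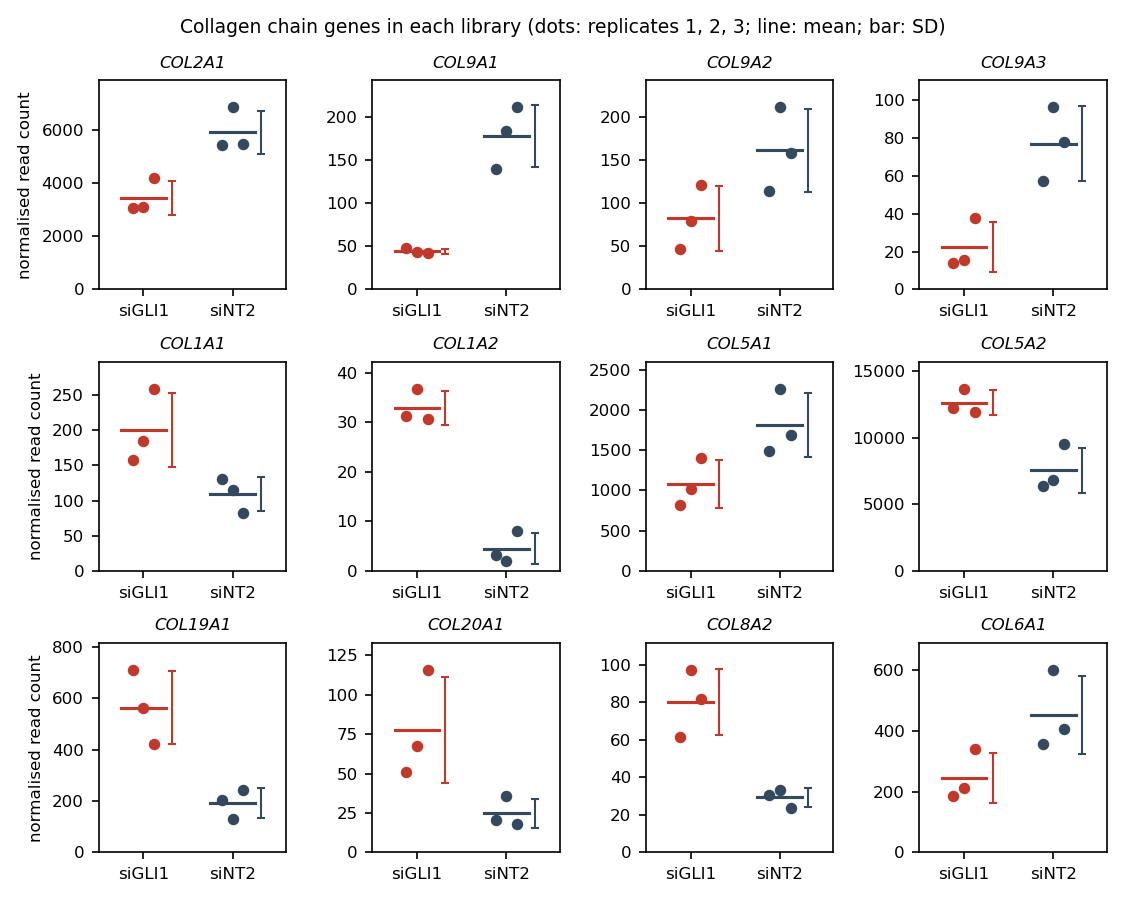
Normalised reads of 12 collagen chains in each of the 6 libraries, with libraries as points, group means as horizontal lines and SDs as bars (n = 3 each, linear axes). COL2A1, COL9A1, COL9A3, COL5A1 and COL6A1 have all siGLI1 points below siNT2, COL5A2, COL1A1, COL1A2, COL19A1, COL20A1 and COL8A2 have all above, and COL9A2 overlaps.

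FACIT collagens had calls in both directions: of 10 chains 9 were tested, 2 rose (background 7.21%), 2 fell (background 8.0%) and 5 were not called (median 0.45). Type IX collagen covers the surface of type II fibrils in cartilage and is a trimer of COL9A1, COL9A2 and COL9A3. COL9A1 was at 47.5, 42.9 and 42.5 in siGLI1 replicates 1 to 3, against 139.5, 183.6 and 211.3 in siNT2 replicates 1 to 3. The siGLI1 libraries clustered tightly and lay well below the lowest siNT2 library. Means were 44.3 ± 2.79 in siGLI1 and 178.1 ± 36.2 in siNT2, a log2 fold change of -1.96 with a standard error of 0.20 and a 95% interval of -2.44 to -1.49 (limma adjusted p = 0.00149). This was the only lower call among the chains to be kept when any 1 library was left out (adjusted p = 0.00294 to 0.0172).

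COL9A3 was at 14.0, 15.3 and 37.5 in siGLI1, against 57.1, 96.3 and 78.1 in siNT2. The groups did not overlap, though siGLI1 replicate 3 was above the other two of its group. The mean was 22.3 ± 13.2 in siGLI1 and 77.2 ± 19.6 in siNT2 (-1.85, standard error 0.40, 95% interval -2.77 to -0.94, adjusted p = 0.0205). The call was lost without siGLI1 replicate 2 (adjusted p = 0.0992) or siNT2 replicate 1, 2 or 3 (0.0508, 0.0549 and 0.0637). COL9A3 overlaps TCFL5 in the annotation, which averaged 414.4 in siGLI1 and 645.6 in siNT2, and whether counting used strand is not given in the sources used here. COL9A2 was at 46.4, 79.7 and 121.5 in siGLI1 and 114.2, 211.0 and 157.9 in siNT2. Its groups overlapped, because siGLI1 replicate 3 exceeded siNT2 replicate 1, and it was not called (-1.02, 95% interval -1.88 to -0.16, adjusted p = 0.106). COL9A2 has 65.2% GC, and with the GC trend removed it was called lower (-0.74, adjusted p = 0.0208).

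In cartilage, the transcription factor SOX9 is a known activator of COL2A1 and of type IX chain genes. SOX9 was at 1650.2, 1521 and 1126 in siGLI1 and 2629, 2539.6 and 3253 in siNT2, with no overlap (-0.98, adjusted p = 0.0129). The SOX9 call was lost without siGLI1 replicate 2 (adjusted p = 0.0594) or siNT2 replicate 1 (0.0531). Of 5 chondrocyte markers only SOX9 was tested; ACAN, COMP and HAPLN1 were below 10 in every library, and MATN3 was at 10.8, 16.4 and 9.88 in siGLI1 and 7.69, 6.09 and 4.78 in siNT2. The summed list, nearly all SOX9, was 1142 to 1664 in siGLI1 and 2552 to 3262 in siNT2. The part of SOX9 in the collagen differences was not tested.

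COL19A1 encodes type XIX collagen, a rare chain found near basement membranes and expressed during muscle development, whose complementary DNA was originally isolated from rhabdomyosarcoma cells. It was at 709.5, 562.3 and 421.7 in siGLI1 replicates 1 to 3, against 203.1, 130.8 and 244.8 in siNT2 replicates 1 to 3. The lowest siGLI1 library exceeded the highest siNT2 library. Means were 564.5 ± 143.9 in siGLI1 and 192.9 ± 57.7 in siNT2, a log2 fold change of 1.56 (standard error 0.28, 95% interval 0.91 to 2.21, adjusted p = 0.0112). Without siGLI1 replicate 2 the adjusted p was 0.0627, and the call held when any of the other 5 libraries was left out.

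COL20A1, a FACIT chain described mainly in chicken embryos, was at 50.8, 67.5 and 115.6 in siGLI1, against 20.9, 35.5 and 18.3 in siNT2. All siGLI1 libraries were above siNT2, with siGLI1 replicate 3 the highest. Means were 77.9 ± 33.6 in siGLI1 and 24.9 ± 9.26 in siNT2 (1.58, standard error 0.37, 95% interval 0.73 to 2.43, adjusted p = 0.0278). The call was lost without siGLI1 replicate 2 (adjusted p = 0.102) or siNT2 replicate 1 (0.103) or 3 (0.0841).

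The most abundant FACIT chains, COL12A1 and COL14A1, which coat type I fibrils in tendon and muscle sheaths, were not called. COL14A1 was at 5287, 4519.7 and 3526 in siGLI1 and 3109.8, 2628 and 4003 in siNT2 (0.45, 95% interval -0.02 to 0.93, adjusted p = 0.177). COL12A1 was at 4075, 3858 and 3167 in siGLI1 and 2397, 1877 and 4173 in siNT2 (0.47, 95% interval -0.18 to 1.12, adjusted p = 0.294). In both genes siNT2 replicate 3 lay within the siGLI1 range or above it, and COL12A1 was called higher without that library (adjusted p = 0.0487). COL16A1, COL21A1 and COL22A1 complete the class: COL16A1 had a log2 fold change of 0.45 and COL21A1 of -0.16, neither called, and COL22A1 was too low to test.

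Among the 6 basement membrane chains, 3 were tested and 0 were called by limma, with 0 at an unadjusted p under 0.05 and 0 by edgeR or DESeq2. Type IV trimers of most tissues hold COL4A1 and COL4A2, which share a promoter region on chromosome 13. COL4A2 was at 8311, 9674 and 14051 in siGLI1 and 8668, 12427 and 8987 in siNT2 (0.07, 95% interval -0.45 to 0.60, adjusted p = 0.85). COL4A1 was at 4425, 3754 and 3862 in siGLI1 and 3754, 3098 and 4401 in siNT2 (0.11, 95% interval -0.26 to 0.48, adjusted p = 0.678). The groups overlapped in both, and the intervals reach up to 0.60 and down to -0.45. Although paired head to head, they did not share a pattern across libraries: COL4A2 was highest in siGLI1 replicate 3 and siNT2 replicate 2, whereas COL4A1 was lowest in siNT2 replicate 2. COL4A2, with 62.0% GC, became a call on the higher side after GC correction (0.30, adjusted p = 0.0306). COL4A5, the chain affected in X-linked Alport syndrome, was at 184.7, 170.7 and 169.9 in siGLI1 and 197.7, 170.4 and 295.1 in siNT2 (-0.30, adjusted p = 0.397), and COL4A3, COL4A4 and COL4A6 were too low to test.

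The short-chain network collagens form hexagonal lattices. COL8A2, a type VIII chain of the membrane beneath the corneal endothelium, was at 61.6, 97.1 and 82.0 in siGLI1, against 30.7, 33.5 and 23.9 in siNT2. Every siGLI1 library was above every siNT2 library, with little spread in siNT2. Means were 80.2 ± 17.8 in siGLI1 and 29.4 ± 4.92 in siNT2 (1.41, standard error 0.25, 95% interval 0.84 to 1.98, adjusted p = 0.0103), and the call was lost without siGLI1 replicate 2 (adjusted p = 0.0627). The other type VIII chain, COL8A1, was under the floor at 1.08, 1.02 and 0.988 in siGLI1 and 1.10, 2.03 and 0 in siNT2. COL10A1, the chain of hypertrophic cartilage, was too low to test.

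Of 5 beaded filament chains 2 were tested and 0 were called by limma or edgeR, while 1, COL6A1, had an unadjusted p under 0.05 and was called by DESeq2. COL6A1 was at 185.8, 210.6 and 339.8 in siGLI1 and 355.8, 598.4 and 405.1 in siNT2. The groups did not overlap, the highest siGLI1 library lying just below the lowest siNT2 library. COL6A1 missed the threshold (-0.90, 95% interval -1.55 to -0.24, adjusted p = 0.0708), but was called lower by DESeq2 (adjusted p = 0.0256) and with the GC trend removed (-0.65, adjusted p = 0.00453). COL6A2, the chain that joins COL6A1 in every type VI trimer, was near the floor and too low to test, at 6.48, 8.18 and 15.8 in siGLI1 and 1.10, 2.03 and 1.59 in siNT2. COL6A3, the third chain, was listed at 0, 1.02 and 0 in siGLI1 and at 0, 1.01 and 0 in siNT2. COL6A6 had a log2 fold change of -0.09, and COL6A5 was under the floor.

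Anchoring fibril, transmembrane and multiplexin chains had 0 calls among 5 tested by limma, edgeR or DESeq2, and 0 had an unadjusted p under 0.05. COL7A1, which anchors epithelium to the dermis, was at 88.6, 256.6 and 325.9 in siGLI1 and 180.1, 439.2 and 248.0 in siNT2 (-0.47, adjusted p = 0.572). COL25A1, a transmembrane chain needed for motor nerves to reach muscle in mice, was at 173.9, 110.4 and 80.0 in siGLI1 and 97.7, 58.8 and 78.1 in siNT2 (0.59, adjusted p = 0.249). COL18A1, a multiplexin whose end fragment is endostatin, was at 1163, 1228 and 1774 in siGLI1 and 1128, 1715 and 952.1 in siNT2 (0.15, adjusted p = 0.717). Groups overlapped in all of these, and COL18A1 was called higher with the GC trend removed (0.46, adjusted p = 0.0139); it overlaps SLC19A1 and COL18A1-AS1, so reads may be shared. COL17A1, a chain of epithelial hemidesmosomes, had a log2 fold change of 0.32, and COL15A1, a multiplexin of muscle and vessel basement membranes, one of -0.24.

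The 15 chains below the filter ranged over 0 to 17.8 normalised reads. COL23A1, a transmembrane chain, had 6.48, 10.2 and 8.89 in siGLI1 and 1.10, 2.03 and 1.59 in siNT2. When the filter was dropped, COL6A2 (adjusted p = 0.0158), COL23A1 (0.012) and COL5A3 (0.038) were called higher, beside a background of 6.07% of 22393 genes, and the 3 lower calls were unchanged in number beside a background of 5.47%. In each, every siNT2 library was below the floor, so no fold is given. COL13A1, COL26A1 and COL28A1 were also too low to test.

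By class, the summed level per kilobase kept a similar make-up in both groups. The total over all 44 chains was 6425, 6809 and 7525 in siGLI1 and 5635, 6797 and 6673 in siNT2, with overlap. Fibrillar chains held 43.9 to 47.1% of it in siGLI1 and 45.2 to 46.5% in siNT2, and basement membrane chains 30.6 to 36.9% in siGLI1 and 31.4 to 35.4% in siNT2. FACIT chains held 13.1 to 20.7% in siGLI1 and 11.2 to 17.5% in siNT2. These 3 large classes overlapped. The small beaded filament share was 0.736 to 1.13% in siGLI1 and 1.46 to 2.10% in siNT2, without overlap. The short-chain network share was 0.236 to 0.325% in siGLI1 and 0.111 to 0.159% in siNT2, also without overlap. Most of the former was COL6A1 (57.9 per kilobase in siGLI1, 106.9 in siNT2). Most of the latter was COL8A2 (17.2 in siGLI1, 6.29 in siNT2), so these shares largely repeat the values of single chains.

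**Figure D4:**
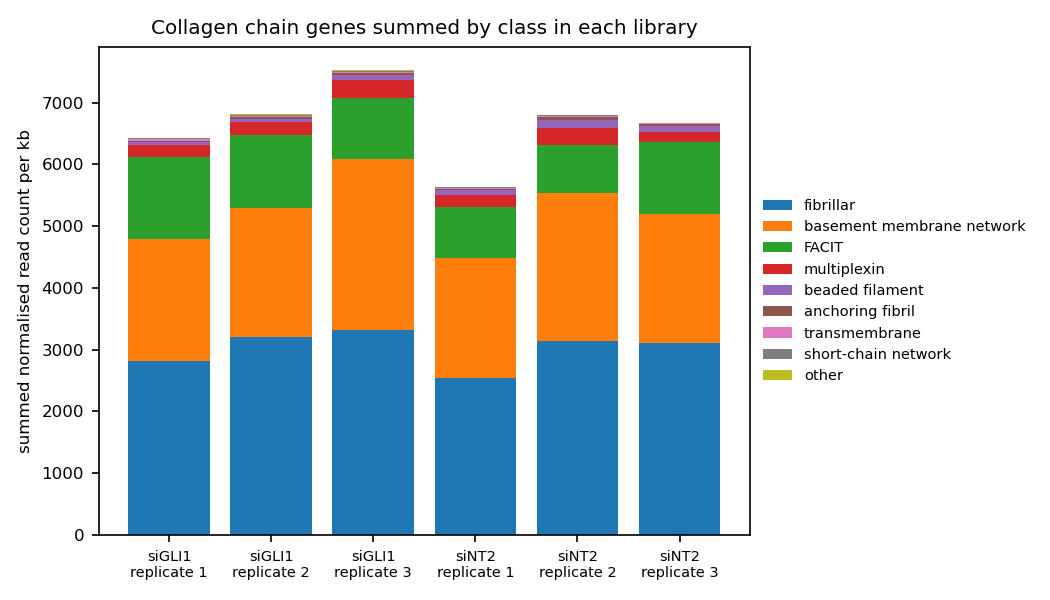
Summed collagen level per kilobase by class in each library, stacked, siGLI1 libraries left of siNT2 libraries. Fibrillar, basement membrane and FACIT chains make up nearly all of each bar, and totals run over 6425 to 7525 in siGLI1 and 5635 to 6797 in siNT2.

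The balance of partner chains in a trimer was set beside the class sums. Per kilobase, the ratio of COL5A1 to COL5A2 was 0.0555, 0.0625 and 0.0977 in siGLI1 and 0.196, 0.278 and 0.149 in siNT2. The ratio of COL1A1 to COL1A2 was 4.05, 4.04 and 6.80 in siGLI1 and 31.9, 45.4 and 8.37 in siNT2, where the low read counts of COL1A2 make it imprecise. Neither ratio overlapped between groups. For COL5A1 to COL5A2 this follows from the values already given, since each chain was without overlap and in opposite directions. The ratio of COL9A2 to COL9A3 was 2.89, 4.54 and 2.82 in siGLI1 and 1.74, 1.91 and 1.76 in siNT2, also without overlap. The other type IX ratios overlapped: COL9A1 to COL9A2 was 0.615, 0.324 and 0.210 in siGLI1 and 0.734, 0.523 and 0.805 in siNT2, and COL9A1 to COL9A3 was 1.78, 1.47 and 0.593 in siGLI1 and 1.28, 0.999 and 1.42 in siNT2. The ratio of COL4A1 to COL4A2 was 0.523, 0.381 and 0.270 in siGLI1 and 0.425, 0.245 and 0.481 in siNT2, with overlap. These ratios are descriptions with no test.

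Several chains are neighbours in the genome without changing alike. COL19A1, which rose, and COL9A1, which fell, lie next to each other on chromosome 6 with 0 coding genes between them. COL3A1, not called, and COL5A2, which rose, are adjacent on chromosome 2. COL9A3, which fell, and COL20A1, which rose, lie on chromosome 20 with 10 coding genes between them. A GLI site was looked for in the 300 bases around each start (RefSeq, GRCh38.p14), on both strands. The motif GLI (GACCACCCA) was in 0 of the 32 chain promoters in that table and in 0.249% of 27305 promoters, a share at which 0 of 32 says little. The table held the promoters of 2 of the 5 chains that rose and 1 of the 3 that fell, so those of the other called chains were not searched. Its core CCACCCA, which the longer motif contains, was in 4 of 32 (12.5%) and in 9.01% of all, the carriers being COL23A1, COL28A1, COL4A3 and COL5A3, all too low to test.

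Chains of both directions held a common sequence in the 3' untranslated region (3' UTR). The miR-29 microRNAs are known repressors of collagen messages in fibroblasts and muscle, and their mature forms are shown because their common seed, bases 2 to 8 in capitals, defines the site that was counted (RefSeq, GRCh38.p14, all on the minus strand: miR-29a at chr7:130876748-130876769, miR-29b at chr7:130877467-130877489 and again at chr1:207802450-207802472, miR-29c at chr1:207801865-207801886).
hsa-miR-29a-3p: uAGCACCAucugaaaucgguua
hsa-miR-29b-3p: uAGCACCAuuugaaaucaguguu
hsa-miR-29c-3p: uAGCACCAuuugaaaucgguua

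The matching site TGGTGCT, searched on the message strand of the 3' UTR in GENCODE 29, was present in 28 of 44 chains (63.6%), at 41 positions. It was in 19 of the 29 tested chains (65.5%), beside 16.0% of 13148 tested genes with a 3' UTR. Median 3' UTR length was 1073.5 bases for the chains and 1282 for the tested genes. The site was in 3 of 5 chains that rose, in 2 of 3 that fell, in 18.6% of all genes called higher and in 18.5% of all genes called lower. The libraries measure messenger RNA and do not give the level of mature miR-29. Of the 2 sites in COL19A1, that at chr6:70209075-70209081 (plus strand) is not shown. The windows below hold the site in capitals for the called chains that carry it and for the partners of type I (GRCh38 sites: COL1A2 chr7:94430913-94430919, plus strand; COL5A2 chr2:189032874-189032880, minus; COL19A1 chr6:70209173-70209179, plus; COL2A1 chr12:47973040-47973046, minus; COL9A1 chr6:70216410-70216416, minus; COL1A1 chr17:50184573-50184579, minus).
COL1A2, higher in siGLI1: gaagaatgttgaTGGTGCTagaagaatttg
COL5A2, higher in siGLI1: ttcctttaatgaTGGTGCTaaaattcttcc
COL19A1, higher in siGLI1: agatctaaaattTGGTGCTatgtgtatatc
COL2A1, lower in siGLI1: tgtcctacacaaTGGTGCTattctgtgtca
COL9A1, lower in siGLI1: attcaatggaatTGGTGCTtaaaatctcat
COL1A1, not called: ggagggaatcacTGGTGCTatagaaattga

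Another 3' UTR sequence, the heptamer GCACCTC, was in 20.7% of all genes called lower and in 7.06% of those called higher. It was in 9.16% of all tested genes with a 3' UTR. The heptamer was chosen with earlier results of these data known, so these shares are descriptions and not a test. Among the chains it was in 6 of 29 tested (20.7%) and in 8 of all 44 (18.2%). It was in 0 of the 3 that fell and in 2 of the 5 that rose, COL8A2 and COL20A1. The other tested carriers were not called: COL9A2 (-1.02), COL6A1 (-0.90), COL21A1 (-0.16) and COL6A6 (-0.09). The part of this heptamer in the chain values was not tested.

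Genes that process collagen or bind it were listed by role, 57 in all, of which 46 were tested. Of these 7 rose (background 7.21%), 6 fell (background 8.0%) and 33 were not called, and the median log2 fold change was 0.10. Calls went in both directions within the enzymes that modify the chains and within those that cross-link fibrils.

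Prolyl and lysyl hydroxylases stabilise the helix and prepare cross-links. With the proteins of the prolyl 3-hydroxylation complex and the glycosyltransferase COLGALT1, 13 genes that modify the chains were tested. Of these, 2 rose (background 7.21%) and 2 fell (background 8.0%). P4HA2, a catalytic subunit of prolyl hydroxylase, was at 3187, 3309 and 3653 in siGLI1 and 1303, 1514 and 1671 in siNT2 (1.18, adjusted p = 0.00237). P4HB, the protein disulphide isomerase that is its other subunit, was at 4690.2, 4806 and 6559.9 in siGLI1 and 11008, 13075 and 10316 in siNT2 (-1.11, adjusted p = 0.00637). P4HA2 and P4HB thus changed in opposite directions, each without overlap and each kept when any 1 library was left out. P4HA1, the alternative catalytic subunit, averaged 927.1 in siGLI1 and 865.3 in siNT2, with overlap, and was not called (0.10, adjusted p = 0.764). P3H2, a prolyl hydroxylase of basement membrane collagen, rose (0.60, adjusted p = 0.0232) and PLOD1, a lysyl hydroxylase, fell (-0.79, adjusted p = 0.0137). The PLOD1 call was lost without siGLI1 replicate 2 (adjusted p = 0.0822) or siNT2 replicate 1 (0.0592), and that of P3H2 without siGLI1 replicate 1 (0.0604) or 2 (0.114) or siNT2 replicate 1 (0.104) or 2 (0.0648). After GC correction, PPIB (0.45, adjusted p = 0.00854), a prolyl isomerase, and PLOD3 (0.35, adjusted p = 0.00939), a lysyl hydroxylase, were also called higher. Among 5 tested chaperones 1 fell (background 8.0%), SERPINH1, the collagen chaperone HSP47 (-0.62, adjusted p = 0.0324). The SERPINH1 call was kept without siGLI1 replicate 3 (0.0148) and lost when any other library was left out (0.0577 to 0.148).

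Of 7 tested genes of propeptide removal, 1 rose (background 7.21%) and 1 fell (background 8.0%). TLL2, a tolloid-like protease, was at 720.3, 763.7 and 817.8 in siGLI1 and 308.6, 241.4 and 224.9 in siNT2 (1.58, adjusted p = 0.00148), kept whichever library was left out. BMP1, which removes the C-terminal propeptides of fibrillar collagens, was at 258.1, 311.8 and 459.3 in siGLI1 and 577.6, 856.0 and 535.9 in siNT2 (-0.95, adjusted p = 0.0494). The BMP1 call was kept without siGLI1 replicate 3 (0.0143) and lost when any other library was left out (0.0727 to 0.179) and in edgeR (0.0554). After GC correction, ADAMTS14, an N-propeptidase, was called higher (0.44, adjusted p = 0.00596) and PCOLCE, which enhances BMP1 activity, lower (-0.44, adjusted p = 0.0293).

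Of 5 tested lysyl oxidases, which cross-link collagen and elastin, 1 rose (background 7.21%) and 2 fell (background 8.0%). LOXL4 was at 184.7, 195.3 and 204.4 in siGLI1 and 460.1, 537.5 and 472.9 in siNT2 (-1.32, adjusted p = 0.00169), kept whichever library was left out. LOXL1 was at 160.9, 183.0 and 286.4 in siGLI1 and 485.4, 655.2 and 590.1 in siNT2 (-1.49, adjusted p = 0.00762), lost without siGLI1 replicate 2 (0.0515). LOXL2, known for cross-linking basement membrane collagen, was at 1395, 1449 and 1565 in siGLI1 and 807.1, 815.4 and 1081 in siNT2 (0.72, adjusted p = 0.0216), lost without siGLI1 replicate 2 (0.102) or siNT2 replicate 1 (0.104) or 2 (0.0588). LOX itself was at 69.1, 95.1 and 73.1 in siGLI1 and 50.5, 30.4 and 58.2 in siNT2 and was not called (0.79, adjusted p = 0.0979).

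Of 5 tested fibril-associated proteins 3 rose (background 7.21%). SPARC, a collagen-binding glycoprotein, was at 8305, 7641 and 6263 in siGLI1 and 4243, 3374 and 4112 in siNT2 (0.92, adjusted p = 0.00925), a call lost without siGLI1 replicate 2 (0.0612). FMOD, the fibril-binding proteoglycan fibromodulin, was at 230.0, 246.4 and 241.0 in siGLI1 and 105.4, 114.6 and 173.0 in siNT2 (0.90, adjusted p = 0.0289), lost without siGLI1 replicate 1 (0.056) or 2 (0.127) or siNT2 replicate 1 (0.115) or 2 (0.074). LUM, the related lumican, was low, at 21.6, 26.6 and 19.8 in siGLI1 and 13.2, 9.13 and 11.2 in siNT2 (0.96, adjusted p = 0.0484), and its call was lost whichever library was left out (0.0555 to 0.195), in DESeq2 (0.0779), after GC correction (0.0694) and without the filter on low values (0.0685). All of these were without overlap between the groups (background 17.4% of all tested genes higher without overlap). Of the 8 tested receptors (collagen-binding integrins, DDR1, DDR2 and MRC2) 0 were called by limma, edgeR or DESeq2, and 1, ITGA11, had an unadjusted p under 0.05 (0.91, adjusted p = 0.0837). ITGA11 was low, with means of 13.6 in siGLI1 and 6.62 in siNT2, and passed the filter only through its siGLI1 values. Of the 3 tested cleaving enzymes 0 were called by any of these tools, and 1, CTSK, had an unadjusted p under 0.05 (0.66, adjusted p = 0.144). MMP2, a gelatinase, was at 4003, 4361 and 4791 in siGLI1 and 4341, 5173 and 5034 in siNT2, with overlap (-0.14, adjusted p = 0.491).

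**Figure D5:**
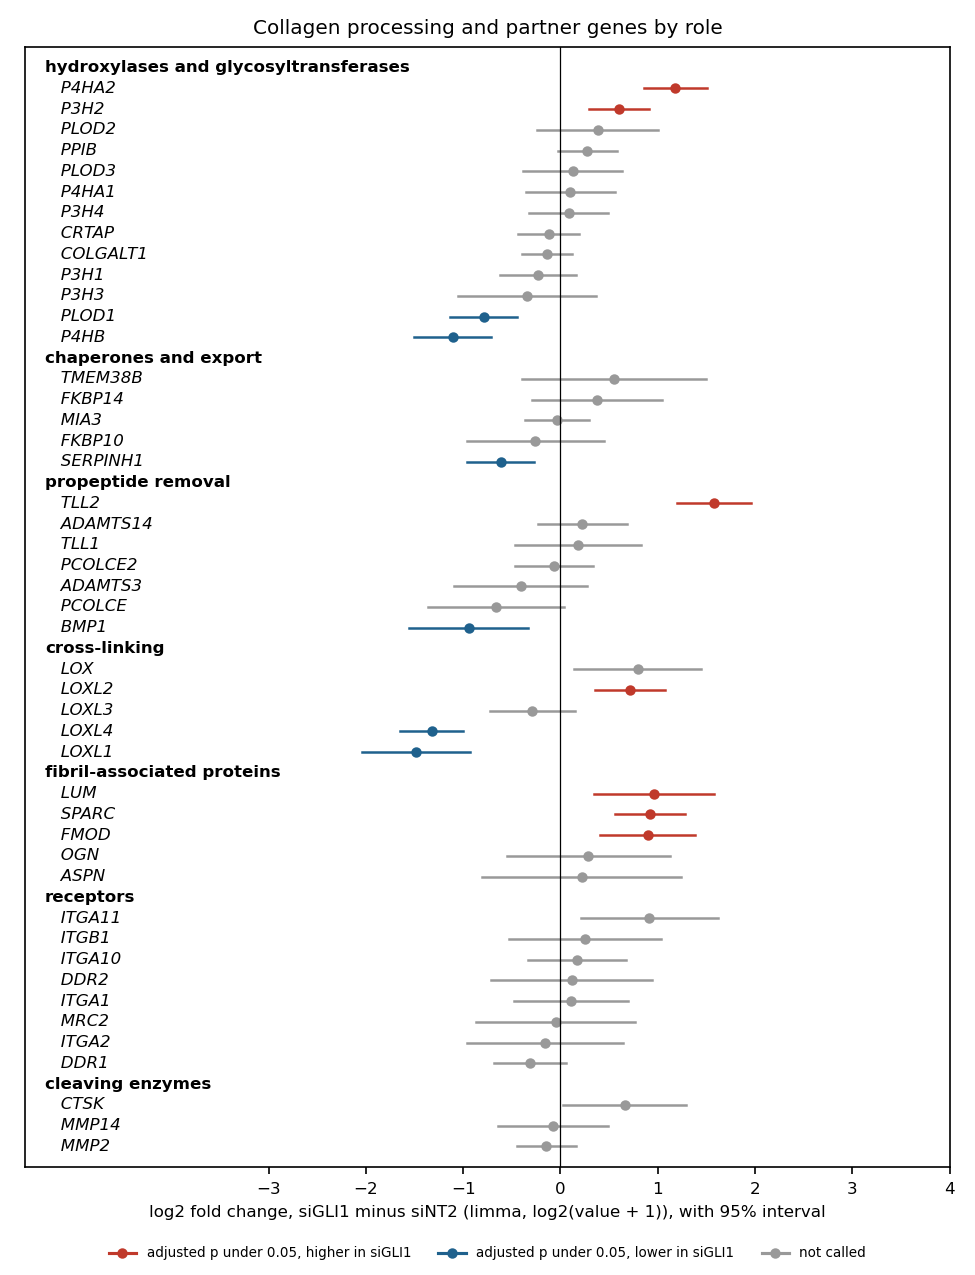
Log2 fold change (siGLI1 minus siNT2) of the 46 tested genes that process or bind collagen, by role, with 95% confidence intervals from limma. P4HA2 at 1.18 and P4HB at -1.11, TLL2 at 1.58 and BMP1 at -0.95, and LOXL2 at 0.72 and LOXL4 at -1.32 stand on opposite sides of 0.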

How the data were processed

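The values the authors deposited are a signal in units of normalised reads: each gene's count over the size factor of its library, with no correction for gene length. Per the submitters' processing notes, reads were handled with bcl2fastq and Trim Galore 0.4.5, the aligner named is Bowtie2 2.3.3.1 and the build hg19, and the notes also list Subread 1.6.4 with featureCounts, and DESeq2 2.11.40.6. Not given in the sources used here are the strand setting, the treatment of multi-mapped reads and the annotation. Collagen genes have many short exons, and an aligner without splicing such as Bowtie2 can lose reads over exon junctions.

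All values were whole multiples of 1 read within 0.01 reads, so whole reads were recovered. Intervals and floors on reads cover counting error only. No pair of libraries agreed within sampling noise, and all 6 were kept. Symbols came from RefSeq (GRCh38.p14) for 23696 of 25702 Entrez IDs (92.2%); transcript length, GC content and 3' UTRs came from GENCODE 29. Length was that of the longest coding transcript.

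The main test was limma 3.58.1 in R 4.3.3 (lmFit, eBayes with trend) on log2(value + 1), group as the only term, for genes with a mean of 10 or more, with Benjamini-Hochberg adjustment over all genes and a threshold of 0.05. Fold changes are siGLI1 minus siNT2 on that scale and understate the change of low genes. Alternatives were a pseudocount of 8, no filter, TMM scaling, edgeR 4.0.16 (quasi-likelihood) and DESeq2 1.42.0 on recovered reads, the replicate number as a block, removal of each library's GC trend (14438 tested genes with a GC value, 92.4%), and leaving out each library. The scripts were tested on simulated data. Values in every library are given for chains that were called, the 10 highest per kilobase and partners in a trimer of a called chain, and processing and partner genes are named where called. The members, lists and motifs were chosen with earlier results of these data known. Some sequences are not printed here.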

Additional observations from a re-analysis of the deposited data

How the results depend on the processing

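The 8 collagen chain calls kept their direction under every alternative run. Counts of calls moved more. After GC correction, 9 chains were called higher and 6 lower, among 2516 genes higher and 2415 lower. Together with the replicate block these were 8, 6, 2015 and 1922. Without the filter on low values 8 chains were called higher, and DESeq2 called 5 lower. Leaving out 1 library gave 1 to 6 chains higher, 1 to 6 lower, 283 to 1562 genes higher, 358 to 1705 genes lower, 2 to 6 processing and partner genes higher and 2 to 7 lower. The fewest chain calls came without siGLI1 replicate 2.

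Deviations of same-numbered libraries correlated at 0.494, -0.109 and -0.614. The highest correlation, 0.755, was between siGLI1 replicate 3 and siNT2 replicate 2, both high in GC-rich genes. These correlations were taken before GC correction, so they cannot decide whether the numbers pair samples. The deposited column names of same-numbered libraries begin alike, but what they share is not said. The main test used no pairing, and the block was an alternative. The replicate block gave 462 genes higher, 508 lower, 3 chains higher, 3 processing and partner genes higher and 3 lower, and the chain calls lost were COL2A1, COL5A2 and COL20A1.

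The median log2 fold change of the chains, 0.108, was 0.227 after GC correction and 0.016 to 0.236 with 1 library left out (0.016 without siNT2 replicate 1 or 3, 0.032 without siGLI1 replicate 3, 0.218 without siNT2 replicate 2 and 0.236 without siGLI1 replicate 1). Sign changes met 14 of 406 values, in 6 chains, 0 of them called. Leaving out 1 library gave -0.142 to 0.239 for COL4A2 (negative without siGLI1 replicate 3 or siNT2 replicate 1), -0.022 to 0.231 for COL4A1 (negative without siNT2 replicate 2) and -0.037 to 0.395 for COL18A1 (negative without replicate 3 of either group). It gave -0.426 to 0.469 for COL11A2 (positive without siGLI1 replicate 1 or siNT2 replicate 2), -0.834 to 0.1 for COL7A1 (positive without siGLI1 replicate 1) and -0.327 to 0.282 for COL6A6 (positive without replicate 3 of either group). COL11A2 was also 0.05 with edgeR, 0.053 with DESeq2 and 0.219 after GC correction, with or without the block. For these the cause was not tested. Depth limits the 15 chains below the filter, 3 of which were called higher without it.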
